A study of Rattus norvegicus with 4 samples.

Results

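Collagens, laminins and integrins are the extracellular matrix proteins and matrix receptors described here across 4 rat mammary gland arrays. Members were the genes whose only symbol in the platform annotation begins with Col and a digit, with Lama, Lamb or Lamc and a digit, or with Itga or Itgb, leaving out 3 genes of binding proteins. The rule gave 74 of 14217 genes on the array, made up of 41 collagen, 10 laminin and 23 integrin genes, measured by 107 probe sets. No measured value entered the rule, but the set was chosen with earlier results of these data known.

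Affymetrix arrays measured RNA from the gland of Sprague-Dawley rats (SDR) on day 1 of lactation, from Hirosaki hairless rats (HHR) that were heterozygous or homozygous on day 1 of lactation, and from SDR on day 1 of involution, when the gland regresses after milk removal stops. HHR is a hairless mutant rat strain. Each group had 1 array. How many animals stand behind an array, and how long SDR had nursed before involution, the labels do not say. Without replicates no difference has an error or a test, so each is described by its size, and precision is limited by having a single array per group. The comparisons of heterozygous HHR, of homozygous HHR and of involution with SDR lactation use the same SDR lactation array.

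Collagens are matrix proteins whose chains wind into triple helices. Fibrillar collagens form the tensile fibres of the stroma, whereas type IV collagen builds the network of the basement membrane. Laminins are heterotrimers of an alpha, a beta and a gamma chain that form the other network of that membrane, on which mammary alveoli and their myoepithelial cells rest. Integrins are receptors of an alpha and a beta chain that bind these proteins and link them to the cytoskeleton. In the mammary gland, contact of the epithelium with laminin through integrins is known to support milk protein expression and cell survival, and the basement membrane is remodelled during involution.

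Signals are MAS5 intensities on a linear scale, and values under 91.5 (the 40th percentile over the arrays) were set to that floor. The signal of a gene is that of its probe set with the highest mean, and a gene counts as measured in a comparison if either array exceeded the floor. Where only one does, the fold is a minimum. Of the 74 members 63 exceeded the floor somewhere and 50 did so in all 4 arrays. The 11 at the floor throughout were Col4a4, Col6a5, Col9a1, Col10a1, Col11a2, Col19a1, Col20a1, Col22a1, Col25a1, Itgad and Itgam. Itgam encodes the alpha chain of the macrophage and neutrophil receptor Mac-1. Among chains of these families that had no probe set with a single symbol were Itga2, Itga4 and Itgb8, which were not analysed here.

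Arrays had been scaled to a common mean, and markers of the labelled tissue were present in each. The mean after trimming the outer 2% of signals at each end was 500.2 in every array. That equality is set by the scaling and does not show that the arrays are comparable. Between 10368 and 10472 genes lay above the floor. All 10 markers of the milk-secreting epithelium were above the floor in every array. Of markers of other tissues, 2 to 3 of 4 for platelets (with the member Itga2b) and 3 to 4 of 5 for skeletal muscle were at the floor. These lists still summed to between 1227 and 2217 for platelets and between 3445 and 6192.5 for skeletal muscle. Some of their markers therefore lay well above the floor. The milk protein gene Csn2 (beta-casein) had signals from 43743 to 55859. Signal from the 3′ end of control transcripts exceeds that from the 5′ end the more RNA has degraded. That ratio was 1.17 for Gapdh in SDR lactation, against 1.93 (heterozygous HHR), 2.30 (homozygous HHR) and 1.60 (involution), and for actin 4.60, 7.86, 5.91 and 4.80 in the same order. The part of RNA quality in the differences from SDR lactation was not tested.

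**Figure D1:**
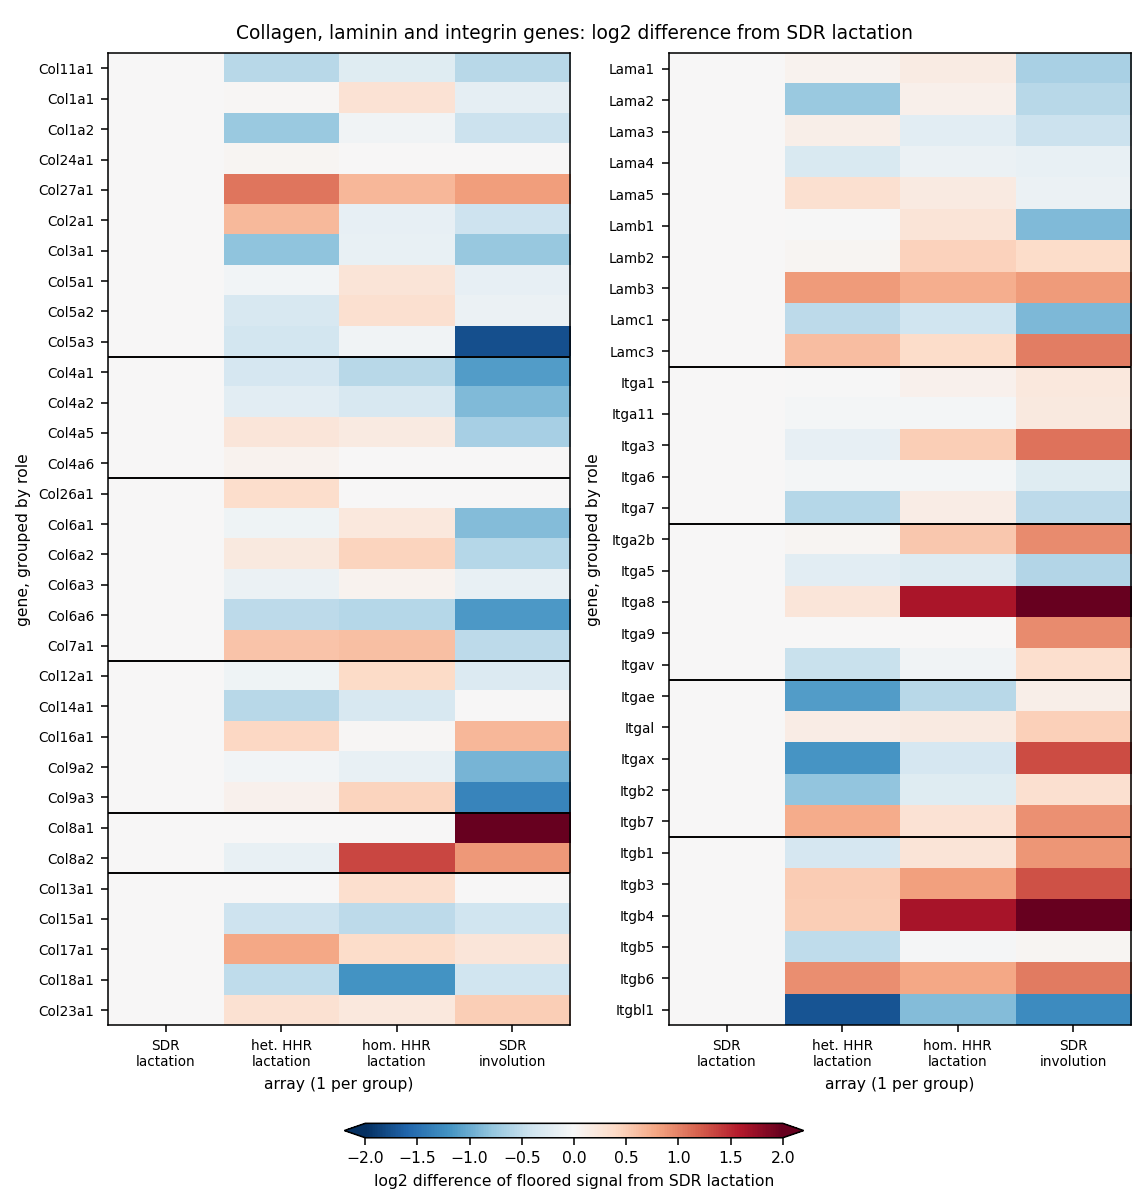
Log2 difference of each array's floored signal from SDR lactation for the 63 members that exceed the floor, with 1 row per gene grouped by role (black lines) and 1 column per array. The integrin rows of the involution column are mostly red, with 17 of 21 above 0, and its type IV and VI collagen rows are blue or near white.

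Within SDR, day 1 of involution was set against day 1 of lactation. Integrin transcripts were mostly higher in involution and collagen transcripts mostly lower. Of 21 measured integrins 17 had a higher signal in involution, and the median log2 difference was 0.47, against 0.08 over all 11014 measured genes, of which 54.3% were higher. Of 28 measured collagens 21 had a lower signal (median -0.41), and of 10 laminins 7 had a lower signal (median -0.29). Among the higher genes Itga2b, Itga9, Itgb7, Col8a1 and Col23a1 were measured only through involution. Among the lower ones Col2a1, Col7a1 and Col11a1 were measured only through lactation. The direction of these genes was fixed by the rule for measured genes. In all, 8 of 59 measured members were at least 2-fold higher, where 10.3% of all measured genes were, and 5 were at least 2-fold lower, where 8.94% of all measured genes were. The scaling of the arrays moves this comparison: centring each array on its median shifted the median over all genes by 0.14 and the share of higher genes among those past 2-fold from 53.4% to 41.0%. With that centring 5 members were higher and 10 lower (856 and 1233 of 10962 genes). The medians were then 0.32 for integrins, -0.55 for collagens and -0.44 for laminins, so the families kept their signs. Of the 13 members past 2-fold, 6 stayed past it under all 7 alternatives in processing, namely Itga8, Itgb4, Itgax, Itgbl1, Col5a3 and Col9a3.

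Among integrin alpha chains the largest difference was that of Itga8, whose product pairs with the beta1 chain and binds RGD-containing ligands, in tissue mainly on smooth muscle and other contractile or mesenchymal cells. Itga8 had signals of 217 in SDR lactation, 257.5 and 674.5 in heterozygous and homozygous HHR and 2184 in SDR involution. It was 10.1-fold higher in involution than in lactation, and a further probe set of the gene was 7.56-fold higher. On the probe set used, the lowest array was SDR lactation, heterozygous HHR lay close to it, and homozygous HHR lay between those and involution. On the further probe set heterozygous HHR was lowest, at the floor, with 102.3 in SDR lactation. Itga3, the alpha chain of a laminin receptor of epithelial cells, had 814 in SDR lactation, 726 and 1150.1 in heterozygous and homozygous HHR and 1727 in involution. It was 2.12-fold higher in involution. The fibronectin receptor chain Itga5 went the other way, with 286 in lactation and 190.0 in involution, and was 1.51-fold lower. Itgav, the alpha chain that pairs with several beta chains, had 783 and 992, and Itga1, of a collagen receptor, had 1065 and 1229. Both were short of 2-fold. Itga9, a receptor chain for tenascin and other ligands, was at the floor in all lactation arrays and had 177 in involution, at least 1.93-fold higher, but its probe sets did not share a direction. Itga2b, the platelet chain, was at the floor in SDR lactation and had 94.4 and 132 in heterozygous and homozygous HHR and 176 in involution. Itga7 was 1.43-fold lower in involution, and Itga11, of a fibroblast collagen receptor, stayed near the floor throughout.

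Itga6, whose product joins the beta1 or the beta4 chain to bind laminin, was 1.19-fold lower in involution on the probe set used here. Its signals were 10842 in SDR lactation, 10597 and 10522 in heterozygous and homozygous HHR and 9147 in involution. A pair of further probe sets were 2.35-fold and 2.50-fold lower in involution than in SDR lactation. The probe set with the larger of these differences had 1875 in SDR lactation against 704, 602 and 749 in heterozygous HHR, homozygous HHR and involution, and the remaining set lay near the floor. All 4 probe sets of Itga6 were lower in involution, by sizes that differed. The set near the floor was measured there only through lactation, which fixed its direction. In each comparison of HHR with SDR that set was higher and the other sets lower.

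Of the beta chains, Itgb4 showed the largest difference. It encodes the beta4 chain, which joins alpha6 in the hemidesmosomes that anchor basal epithelial and myoepithelial cells to laminin. Itgb4 had 781 in SDR lactation, 1093 and 2437 in heterozygous and homozygous HHR and 3531 in SDR involution. Its signal was 4.52-fold higher in involution than in lactation, and both HHR arrays lay between the SDR arrays. Itgb1, the common beta chain of most matrix receptors, had 6287, 4989.5, 7489 and 11630 in the same order of arrays (1.85-fold higher in involution), and a further probe set was 1.48-fold higher. Itgb6, an epithelial chain that activates latent transforming growth factor beta, had 304 in SDR lactation and 627 in involution, a 2.06-fold difference. Itgb3, a chain of platelet and endothelial receptors, had 101 in SDR lactation, 143 and 177 in heterozygous and homozygous HHR and 242 in involution, 2.41-fold higher in involution. Its lactation signal lay just above the floor. Itgb5 had 897 and 926 and hardly differed. Itgbl1, which encodes a secreted protein related to beta chains and is no receptor chain, was the only integrin-named gene at least 2-fold lower, with 685 in lactation and 286 in involution (2.39-fold).

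The leukocyte integrins were higher in involution in 5 of 5 measured members, with a median log2 difference of 0.47. The smallest was that of Itgae, with 533 and 575 (0.11 on the log2 scale), whose sign turned under 1 of 7 alternatives (-0.04). Itgax, a marker of dendritic cells and macrophages, had 332 in SDR lactation, 147 and 263 in heterozygous and homozygous HHR and 824 in involution, where it was 2.48-fold higher than in lactation. Itgb2, the shared beta chain of leukocyte integrins, had 488 and 612, and Itgal, its partner on lymphocytes, had 379 and 525. Itgb7, the beta chain of gut-homing lymphocytes and the partner of Itgae, was at the floor in SDR lactation. It had 153, 112 and 171.5 in heterozygous HHR, homozygous HHR and involution, so its direction was fixed by the rule for measured genes. In the same comparison 2 of 3 measured neutrophil markers were at least 2-fold higher, and the sum of the 4 neutrophil marker signals was 366 in lactation (all at the floor) and 4430.2 in involution. The 9 macrophage markers summed to 8304 in lactation and 7744 in involution, with 0 past 2-fold, and of 6 measured markers of T, B and plasma cells 5 were lower and 1 was at least 2-fold higher, with sums of 1944 and 2487. The part of such cells in the leukocyte integrin signals was not tested. In bulk tissue more cells of a type and more RNA per cell cannot be told apart.

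The type IV collagen chains and the widespread laminin chains Lamb1 and Lamc1 were lower in involution. Col4a1, a chain of the ubiquitous type IV collagen, had 6711 in SDR lactation, 5299 and 4584 in heterozygous and homozygous HHR and 3108 in SDR involution. It was 2.16-fold lower in involution, and 2.38-fold lower by a further probe set. Its partner chain Col4a2 had 3961, 3432, 3188 and 2137 in the same order and was 1.85-fold lower. In both genes SDR lactation was the highest array and involution the lowest. Col4a5, a chain of another type IV network, had 627.5 in lactation and 395 in involution. Among laminins, Lamb1 had 3908, 3886, 4667 and 2117 and was 1.85-fold lower in involution. Lamc1, the gamma chain of most laminins, had 3300.2, 2289.7, 2493 and 1775 and was 1.86-fold lower, and a further probe set was 2.33-fold lower. The linker proteins that join the laminin and collagen networks were lower too, as Nid1 had 6737 in lactation and 2843 in involution and Nid2 had 1730.4 and 360.3.

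The start of Col4a1 is shown because the gene lies head to head with Col4a2, its partner in the type IV collagen helix, and both had lower signals in involution. Starts of Lamc1, lower in involution as well, and of Itga3 and Itga8, higher in involution, are given for comparison. In the RefSeq annotation of GRCr8 the starts of Col4a1 and Col4a2 lie 77 bases apart on opposite strands, and the printed window holds both. Each window runs from 250 bases before to 50 after the annotated start, 5′ to 3′ on the strand of the gene, and capitals mark every match on either strand to the TATA box (TATAAA), the CCAAT box (CCAAT), the GC box (GGGCGG), the AP-1 motif (TGANTCA) or the STAT motif (TTCNNNGAA).
Col4a1 (chr16:84885347-84885646, + strand): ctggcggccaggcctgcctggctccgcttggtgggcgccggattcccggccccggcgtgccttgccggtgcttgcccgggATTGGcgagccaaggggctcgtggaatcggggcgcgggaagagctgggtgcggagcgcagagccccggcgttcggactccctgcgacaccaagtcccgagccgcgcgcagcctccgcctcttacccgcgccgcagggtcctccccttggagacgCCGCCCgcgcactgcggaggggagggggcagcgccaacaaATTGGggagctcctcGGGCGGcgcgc
Lamc1 (chr13:68051937-68052236, - strand): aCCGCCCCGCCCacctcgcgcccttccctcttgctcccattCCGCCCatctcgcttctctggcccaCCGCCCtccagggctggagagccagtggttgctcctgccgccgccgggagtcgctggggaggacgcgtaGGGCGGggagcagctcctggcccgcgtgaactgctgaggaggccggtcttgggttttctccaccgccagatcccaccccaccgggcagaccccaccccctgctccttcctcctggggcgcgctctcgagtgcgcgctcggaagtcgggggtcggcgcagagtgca
Itga3 (chr10:80518852-80519151, - strand): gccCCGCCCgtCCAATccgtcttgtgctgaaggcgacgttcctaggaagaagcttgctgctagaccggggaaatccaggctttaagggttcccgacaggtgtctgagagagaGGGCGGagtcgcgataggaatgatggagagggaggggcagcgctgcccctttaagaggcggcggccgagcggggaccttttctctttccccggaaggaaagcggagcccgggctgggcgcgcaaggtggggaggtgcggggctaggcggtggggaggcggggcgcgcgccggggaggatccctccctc
Itga8 (chr17:80410584-80410883, - strand): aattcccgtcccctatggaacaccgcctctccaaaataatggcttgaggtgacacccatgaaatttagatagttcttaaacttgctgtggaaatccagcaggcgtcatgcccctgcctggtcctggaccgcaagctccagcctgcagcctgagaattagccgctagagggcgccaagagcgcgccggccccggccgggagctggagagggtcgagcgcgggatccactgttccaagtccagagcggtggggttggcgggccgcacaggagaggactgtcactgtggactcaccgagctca

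The Col4a1 window held 2 CCAAT boxes and 2 GC boxes, the Lamc1 window 5 GC boxes (a pair of them overlapping) and the Itga3 window 1 CCAAT box and 2 GC boxes. None of the motifs searched matched the Itga8 window, which says only that these letters are not in it. A promoter window was at hand for 60 members. Among these 60, a GC box was in 33, a larger share than the 33.1% of all 33469 promoters that held it. A CCAAT box was in 15, a smaller share than the 37.5% of all promoters. The TATA box was in 6 (14.2% of all promoters), the AP-1 motif in 3 (7.33%) and the STAT motif in 6 (8.87%). A match is a description of the letters and not evidence of binding.

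Other laminin chains differed in direction. Lamb3, the beta chain of laminin-332 in hemidesmosomes, had 392 in SDR lactation, 707 and 651 in heterozygous and homozygous HHR and 709.5 in SDR involution. The SDR lactation array was the low one, and the other arrays lay close together. Its partner alpha chain Lama3 had 274, 296, 236 and 203.5 and was 1.34-fold lower in involution. Lamc3, the gamma3 chain, had 159, 243, 204 and 324 and was 2.04-fold higher in involution. Lama1 was 1.56-fold lower in involution, and Lama2, the alpha chain of muscle and nerve basement membranes, 1.47-fold lower. Lama4 of vascular basement membranes and Lama5 of mature epithelial ones were within 1.11-fold and 1.09-fold of lactation, and Lamb2, the beta chain of synaptic and kidney laminins, was 1.29-fold higher.

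**Figure D2:**
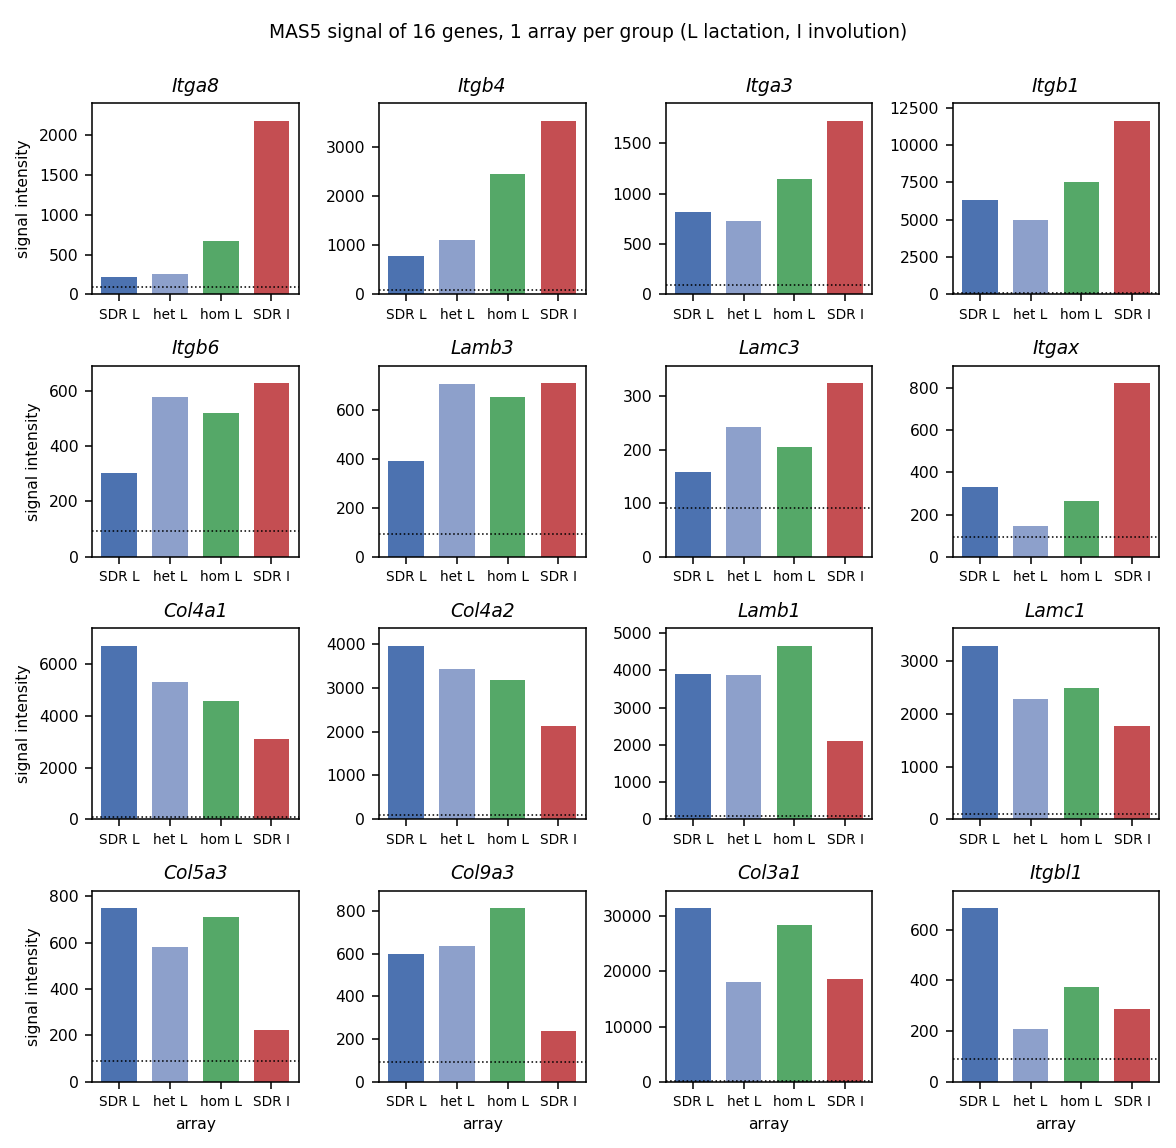
MAS5 signal (linear vertical axes, each from 0) of 16 genes on each of the 4 arrays, with 1 bar per array and a dotted line at the floor of 91.5. Itga8 and Itgb4 are tallest in SDR involution (2184 and 3531) with homozygous HHR next (674.5 and 2437), whereas Col4a1 and Col4a2 are shortest there (3108 and 2137).

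Of 9 measured fibrillar collagens 8 were lower in involution, with a median of -0.41, and 1 of them passed 2-fold. Among the 8, Col2a1 and Col11a1 were measured only through lactation. The chains of type I collagen, the main fibre protein, had 9675 and 8539 (Col1a1) and 11494 and 8529.8 (Col1a2). Col3a1, the fibrillar collagen of distensible tissue, had 31427 in SDR lactation, 18053 and 28327 in heterozygous and homozygous HHR and 18525 in SDR involution. It was 1.70-fold lower in involution, and the arrays of heterozygous HHR and involution were the low ones. Col5a3, a minor chain of fibre-nucleating type V collagen, had 749, 579.5, 710.1 and 222 and was 3.38-fold lower in involution. Only the involution array was low. The other type V chains Col5a1 and Col5a2 were within 1.12-fold and 1.09-fold.

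Of the beaded filament and anchoring collagens 5 of 5 measured members were lower in involution, of which Col7a1 was measured only through lactation. Col6a1 was 1.83-fold lower, Col6a2 1.48-fold and Col6a3 1.11-fold, and Col6a6 was 2.22-fold lower with 222 and 99.8, the latter near the floor. Col9a3, a fibril-associated chain best known from cartilage, had 599 in SDR lactation, 634 and 813 in heterozygous and homozygous HHR and 239 in involution, and was 2.50-fold lower. Col9a2 had 212 and 111 (1.91-fold). Against this direction, Col8a1, a network-forming collagen of vessel walls, was at the floor in all lactation arrays and had 393 in involution, at least 4.30-fold higher. Its relative Col8a2 had 112.5 in SDR lactation and 204 in involution. Col16a1, another fibril-associated chain, had 394 in SDR lactation and 623 in involution (1.58-fold higher), and Col27a1 was 1.79-fold higher. Col14a1 had 1975 and 1991 and was level, and Col12a1 was 1.21-fold lower. Col7a1, the anchoring fibril collagen beneath basal epithelium, had 131 in SDR lactation, 195 and 200.1 in heterozygous and homozygous HHR and a value at the floor in involution. Col11a1, Col13a1, Col23a1, Col24a1, Col26a1 and Col4a6 stayed under 135 in every array.

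Markers of the cells that make these matrices moved unevenly in the same pair of arrays. The 9 endothelial and pericyte markers summed to 10447 in SDR lactation and 6071 in involution, with 3 at least 2-fold lower and 1 at least 2-fold higher. Of 10 fibroblast markers 6 were lower and 4 higher, with 1 past 2-fold in each direction and sums of 32012 and 30232. Of 10 myoepithelial markers 7 were higher, 2 of them at least 2-fold, and 3 lower, 1 of them at least 2-fold. Their sums were 28642 and 35193. Of 4 measured adipocyte markers all were lower, 2 of them at least 2-fold, and the list summed to 26511 in lactation, 13639 and 13624 in heterozygous and homozygous HHR and 6351 in involution. Of 3 Schwann cell markers 2 were at least 2-fold lower. The part of such cells in the collagen, laminin and integrin signals was not tested.

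The other genes that build, bind and cut the matrix were read from lists. Of 19 measured genes for collagen folding, processing and crosslinking 13 were lower in involution, with 1 past 2-fold in each direction. Serpinh1, the collagen chaperone, had 3844 and 1652 (2.33-fold lower), and Lox, which crosslinks collagen and elastin, had 790.2 and 1639 (2.07-fold higher). Of 23 other basement membrane and matrix genes 2 were at least 2-fold higher and 6 lower, among them the adhesion-modulating tenascin Tnc with 10687 and 1464. Of 28 other matrix receptors and integrin effectors 18 had a higher signal and 10 a lower one. Past 2-fold were 5 of the higher and 1 of the lower. The matrix-binding syndecan Sdc1 had 1103 and 8233 (7.46-fold higher), Ddr1, the epithelial collagen receptor kinase, had 1626 and 3253, and Actn1, which links integrins to actin, had 2135 and 5878. The integrin scaffold Bcar1 was lower, with 1132 and 369. Of 18 measured matrix proteases and inhibitors 13 had a higher signal and 5 a lower one. Past 2-fold were 6 of the higher and 3 of the lower. Over all measured genes 10.3% were past 2-fold upward and 8.94% downward. Timp1, an inhibitor of metalloproteases, had 781 and 8593, and Mmp14, the membrane-bound collagenase, had 2356 and 5944.

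**Figure D3:**
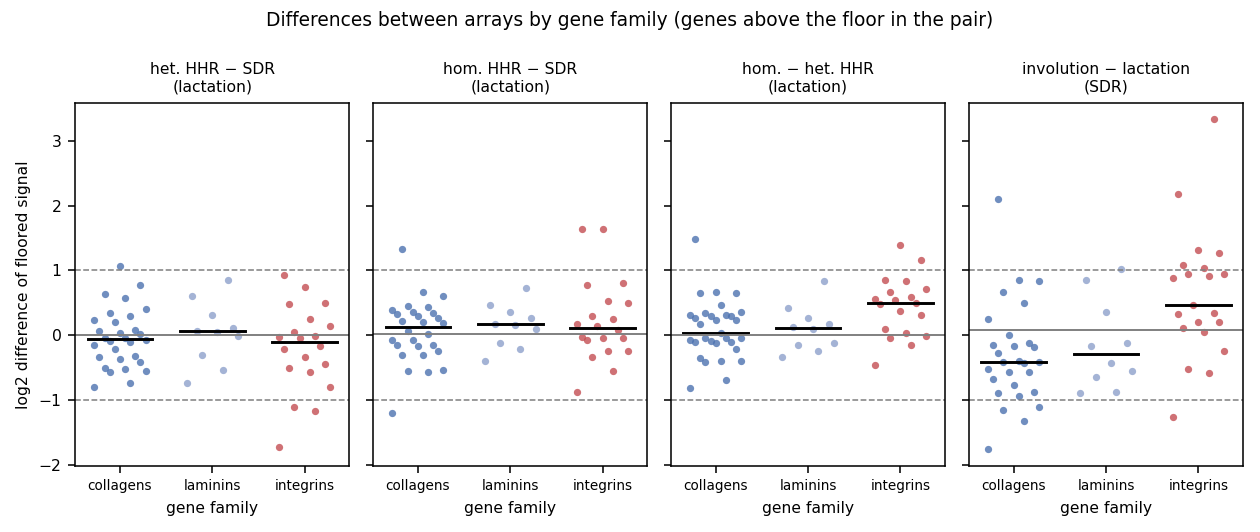
Log2 difference of floored signal for each measured gene (points) of the 3 families in the 4 comparisons, with the family median as a black bar, the median over all measured genes as a solid grey line and 2-fold as dashed grey lines. Integrin points sit mostly above the grey line in involution (median 0.47) and in homozygous against heterozygous HHR (median 0.49), and collagen points mostly below it in involution (median -0.41).

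Homozygous HHR differed past 2-fold from SDR at lactation in few of these genes, as in few of all measured genes. Of 58 measured members 3 were at least 2-fold higher, where 3.77% of all measured genes were, and 1 was at least 2-fold lower, where 2.72% were. With the floor at the 25th percentile 6 of 68 members were higher (652 of 12514 genes). The median was 0.15, against 0.02 over all measured genes. The higher genes were Itgb4 (2437 against 781, 3.12-fold), Itga8 (674.5 against 217, 3.11-fold) and Col8a2 (283 against 112.5, 2.52-fold). For Itga8 a further probe set was 2.01-fold higher. Itga8 and Itgb4 stayed past 2-fold under all 7 alternatives and Col8a2 did not.

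The lower gene was Col18a1, a basement membrane collagen whose C-terminal fragment is the vessel growth inhibitor endostatin. It had 779 in SDR lactation, 547 and 339 in heterozygous and homozygous HHR and 588 in involution, which makes homozygous HHR 2.30-fold lower than SDR. The further probe set of Col18a1 had 338.5 in SDR and 358 in homozygous HHR, so the difference rests on 1 probe set, and with the mean of both it was -0.56 on the log2 scale. Of 3 measured type IV chains 2 were lower without reaching 2-fold, Col4a1 by 1.46-fold and Col4a2 by 1.24-fold, and Col4a5 was 1.14-fold higher. Col15a1, a relative of Col18a1 in vascular basement membranes, was 1.44-fold lower, and 1.95-fold lower by its further probe set. In this pair 3 of 9 endothelial and pericyte markers were at least 2-fold lower and 0 higher, and their sum was 6503 against 10447. The part of vessel cells in these collagen values was not tested.

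Fibrillar collagens were close to SDR in homozygous HHR, with a median of -0.07 over 9 measured chains. Col1a1 had 11872 against 9675, Col1a2 10914 against 11494 and Col3a1 28327 against 31427. Laminins had a median of 0.17, from -0.40 for Lamc1 to 0.73 for Lamb3, and 0 of 10 passed 2-fold. For Lamc1 the probe sets differed in size, as the one not used was 3.13-fold lower in homozygous HHR. Of 20 integrins 11 were higher and 9 lower. The higher Itga2b and Itgb7 were measured only through homozygous HHR and the lower Itga11 only through SDR, which fixed their direction. Itgb3 was 1.76-fold higher and Itgb6 1.71-fold higher, while Itgbl1 was 1.83-fold lower. Among 10 myoepithelial markers 3 were at least 2-fold higher and 1 lower, and their sum was 46894 against 28642. This was not tested as a source of the Itgb4 and Itga8 signals. Of the 28 other receptors and effectors 19 were higher and 9 lower. At least 2-fold higher were 2, the focal adhesion protein Zyx (2499.8 against 1107) and Actn1 (4412 against 2135). At least 2-fold lower was 1, the kinase Ptk2b (197 against 441). Of 23 other basement membrane and matrix genes 2 were at least 2-fold lower and 0 higher, among them Tnc (5213 against 10687). Of 18 measured folding, processing and crosslinking genes 16 were lower (median -0.17), 1 of them at least 2-fold, P3h3. Of 19 proteases and inhibitors 0 passed 2-fold.

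The array from heterozygous HHR was set against the SDR lactation array. Few members passed 2-fold, as did few of all measured genes, and most of those members were integrin-named genes with lower signal. Of 60 measured members 1 was at least 2-fold higher, where 4.58% of all measured genes were, and 3 were at least 2-fold lower, where 4.15% were. These counts depend on how weak signals are treated. With the floor at the 25th percentile 7 of 68 members were higher (756 of 12518 genes). With the floor added as a pseudocount 0 were higher and 1 lower (324 and 261 of 10871 genes). The median was -0.04, against 0.01 over all measured genes. The higher gene was Col27a1, a fibrillar collagen known from cartilage, with 228 in SDR lactation, 480.3 and 364 in heterozygous and homozygous HHR and 409 in involution (2.10-fold). SDR lactation was the lowest array for it.

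All 3 lower members carry integrin names. Itgbl1 had 207 against 685 (3.31-fold lower) and alone among the 4 stayed past 2-fold under all 7 alternatives. Itgax had 147 against 332 (2.25-fold lower). Itgae, the alpha chain of a receptor of intraepithelial T cells and some dendritic cells, had 247 against 533 (2.16-fold lower), with 363 in homozygous HHR and 575 in involution. Itgb2, the partner of Itgax, was 1.74-fold lower, with 281 against 488. Of 9 macrophage markers 3 were at least 2-fold lower and 0 higher in the same pair, with sums of 4925 against 8304. Of 6 measured markers of T, B and plasma cells 1 was at least 2-fold lower and 0 higher. The part of these cells was not tested.

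Of 10 measured fibrillar collagens 6 were lower and 4 higher in heterozygous HHR, with a median of -0.19. The lower Col11a1 was measured only through SDR and the higher Col24a1 only through heterozygous HHR, which fixed their direction. Col3a1 was 1.74-fold lower and Col1a2 1.67-fold, whereas Col1a1 had 9832 against 9675. Both probe sets of Col1a1 lay within 1.02-fold of SDR. Of the 10 fibroblast markers 9 were lower, 1 of them past 2-fold, and their sum was 22332 against 32012. Among the 10 laminins, 6 had a higher and 4 a lower signal (median 0.06), from Lama2 (1.67-fold lower) to Lamb3 (1.81-fold higher). Itgb6 was 1.90-fold higher, while Itga3 was 1.12-fold and Itgb1 1.26-fold lower. Col17a1, the transmembrane collagen of hemidesmosomes, was 1.71-fold higher and had 519.8 in SDR lactation, 886.5 and 669 in heterozygous and homozygous HHR and 617 in involution. Of the 10 myoepithelial markers 9 were higher in this pair, 1 past 2-fold, with sums of 47937 against 28642. Of 4 measured adipocyte markers 2 were at least 2-fold higher and 1 lower, while their summed signal was 13639 against 26511. Of 9 endothelial and pericyte markers 2 were at least 2-fold lower and 0 higher, with sums of 5784 against 10447. The part of these cells was not tested.

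Most of the listed matrix genes outside the families had lower values in heterozygous HHR, whereas the median over the measured members was -0.04. Of 23 other basement membrane and matrix genes 20 were lower in heterozygous HHR, 4 of them at least 2-fold, among them fibronectin (Fn1, 857 against 1945) and the small proteoglycan Lum (1910.2 against 3852). Of 18 genes for collagen folding, processing and crosslinking 2 were at least 2-fold lower and 0 higher. They were Lox, with 311 against 790.2, and the prolyl hydroxylase P3h3, with a value at the floor against 197. Of 18 measured proteases and inhibitors 3 were at least 2-fold lower and 0 higher, among them the plasminogen activator Plat (368.5 against 908). Of 28 other receptors and effectors 0 passed 2-fold in either direction.

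Homozygous and heterozygous HHR were compared directly, without the SDR array. Integrins were mostly higher in homozygous HHR, in 15 of 19 measured genes and with a median of 0.49 (0.31 with the mean of all probe sets), against 0.00 over all measured genes. Of 60 measured members 3 were at least 2-fold higher, where 3.76% of all measured genes were, and 0 were at least 2-fold lower, where 3.14% were. Col8a2 was 2.79-fold higher, Itga8 2.62-fold (at least 2.24-fold by its further probe set) and Itgb4 2.23-fold. Next to these came Itgbl1 (1.81-fold), Itgax (1.79-fold), Lama2 (1.78-fold), Itga7 (1.64-fold), the alpha chain of a muscle laminin receptor, and Itga3 (1.58-fold). The probe sets of Itga7 did not share a direction. Fibrillar chains were higher in 7 of 10 measured members, with Col1a2 at 1.58-fold, Col3a1 at 1.57-fold and Col5a2 at 1.57-fold. The higher Col11a1 was measured only through homozygous HHR and the lower Col24a1 only through heterozygous HHR, which fixed their direction. Col2a1, the cartilage collagen, had 109 in homozygous and 190.4 in heterozygous HHR and was 1.75-fold lower. Type IV chains differed little, with Col4a1 1.16-fold lower and its further probe set in the other direction. Fibroblast markers were higher in 9 of 10 and macrophage markers in 8 of 9, and their part was not tested. Of 18 genes for collagen folding, processing and crosslinking 8 were higher and 10 lower. At least 2-fold higher were 2, Lox (749 against 311) and its relative Loxl1 (1303 against 611), and 0 were at least 2-fold lower. The other lists were mostly higher, as the integrins were. Of 21 other matrix genes 16 were higher (median 0.29), with Lum (4354 against 1910.2) the 1 past 2-fold. Of 19 proteases and inhibitors 16 were higher (median 0.44), 1 of them at least 2-fold, Plat (819 against 368.5). Of 28 other receptors and effectors 22 were higher (median 0.26) and 6 lower, with 1 past 2-fold in each direction. Bcar1 was the lower of these.

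Across the 4 arrays, 17 of the 21 integrin-named genes above the floor had their highest signal in SDR involution (81.0%). The share was 36.4% of the 11395 genes that exceeded the floor somewhere. Of 32 collagens 4 did (12.5%) and of 10 laminins 2 (20.0%). Collagens were spread over the lactation arrays, with 10 highest in SDR lactation, 7 in heterozygous HHR and 11 in homozygous HHR. A gene above the floor in a single array can be highest only there. This held for Itga9 and Col8a1 in involution, Col4a6, Col24a1 and Col26a1 in heterozygous HHR and Col13a1 in homozygous HHR. The same applies to such genes among the 11395. When arrays were centred on their medians, 13 of the 21 integrins (61.9%) were highest in involution, against 28.5% of all genes.

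Partner chains did not always move as a pair. In involution Itga8 was 10.1-fold and Itgb1 1.85-fold higher, and Itgb6 was 2.06-fold and its partner Itgav 1.27-fold higher. Itgb4 was 4.52-fold higher while Itga6 was 1.19-fold lower on the probe set used. Its further probe sets were lower too, but the set near the floor was measured only through lactation. Genes that are neighbours in the genome were also compared, since the RefSeq order of protein-coding genes puts several members side by side. Col4a1 and Col4a2 had similar log2 differences in involution (-1.11 and -0.89), as did Col6a1 and Col6a2 (-0.87 and -0.57), whereas Col3a1 and Col5a2 had -0.76 and -0.12.

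Where a gene had several probe sets, their directions could be compared within these arrays. In involution against lactation 15 of 18 members with a further measured probe set had all of them in the same direction. In heterozygous HHR against SDR the count was 12 of 19 and in homozygous HHR against SDR 11 of 18. It was 11 of 18 in homozygous against heterozygous HHR too. The 7 exceptions in homozygous HHR against SDR were Col18a1, Col1a2, Col6a3, Itga6, Itga7, Itgav and Itgb1. Among them, the log2 differences were -0.07 and 0.12 for Col1a2, 0.07 and -0.89 for Col6a3, and from -1.64 to 0.54 for Itga6.

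**Figure D4:**
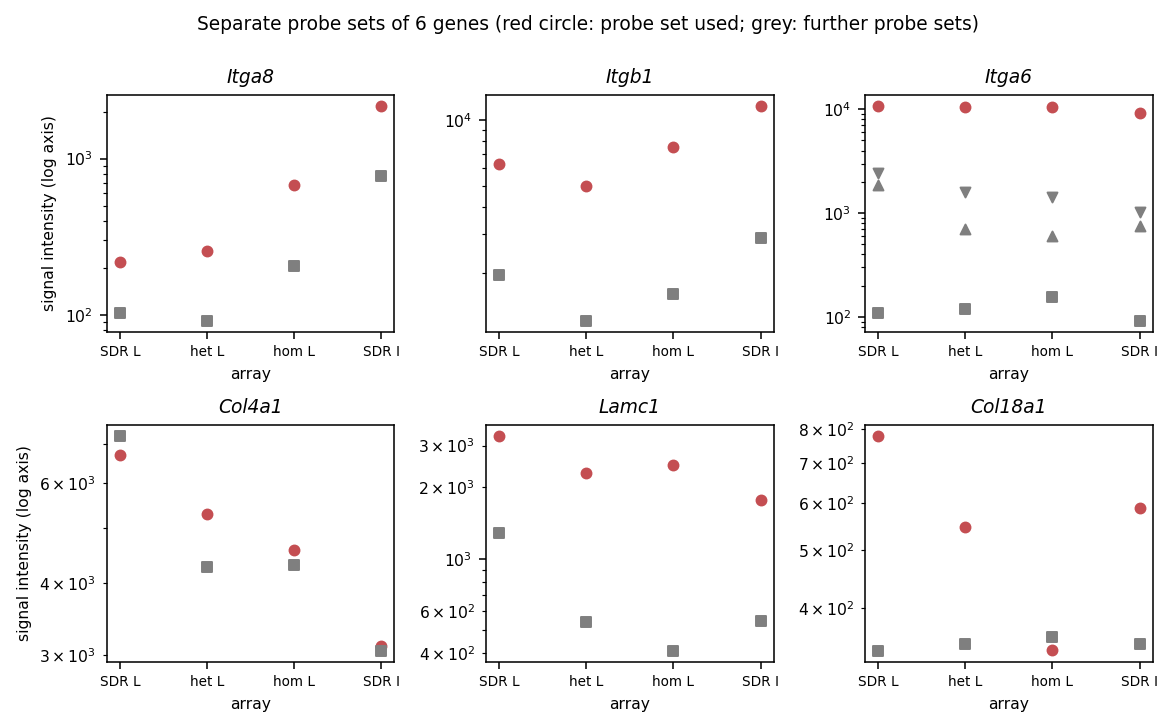
MAS5 signal on a log axis for each probe set of 6 genes on the 4 arrays, with the probe set used here as red circles and further ones as grey symbols. Both probe sets of Itga8 are highest in SDR involution and both of Col4a1 are lowest there, while those of Itga6 differ in the size and those of Col18a1 in the direction of their differences.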

How the data were processed

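Total RNA was extracted with an RNeasy kit, per the labels' protocols, and 1 array was run per group. The deposited values are MAS5 signal intensities on a linear scale, 1 per probe set, and the submitters' processing notes name MAS5 but no version. Each column carries the name of its sample (0 columns unmapped), and the labels gave the groups. The 57 control probe sets were left out of the 31099. Genes were named from the platform annotation where it lists 1 symbol, and all 74 member symbols were found unchanged in RefSeq (GRCr8), which was used for names, order and promoter sequences.

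Values under the pooled 40th percentile (91.5) were raised to it before log2 was taken, with the probe set of highest mean per gene. Differences were counted by size (2-fold) among measured genes, and no test was made. Python 3.11.15, pandas 2.3.3 and numpy 2.4.6 were used, and the counting steps were tested on simulated data. Members, role lists, markers and alternatives (2 scalings, 2 floors, a pseudocount, the mean of probe sets, no shared-probe suffixes) were chosen with earlier results of these data known. Members past 2-fold, the 3 with the highest signal of each role list and partner chains were eligible to be named, and other members named short of 2-fold were chosen after their values were seen. From the other lists, members past 2-fold and the 2 with the highest signal were eligible.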

Additional observations from a re-analysis of the deposited data

How the results depend on the processing

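Of 24 member differences past 2-fold over the 4 comparisons, 11 stayed past 2-fold in the same direction under all 7 alternatives, and 0 of the 24 changed sign. Those not past 2-fold throughout were Col27a1, Itgae and Itgax in heterozygous HHR, Col18a1 and Col8a2 in homozygous HHR, Col8a2 between the HHR arrays, and Col4a1, Col6a6, Col8a1, Itga3, Itgb3, Itgb6 and Lamc3 in involution. With the floor at the 25th percentile, 7 of 68 members were higher in heterozygous HHR than in SDR (756 of 12518 genes). At that floor 6 of 68 were higher in homozygous HHR than in SDR (652 of 12514 genes). There 1 of 68 was lower in homozygous than in heterozygous HHR (551 of 12502 genes). In involution 8 of 70 were lower (1226 of 12576 genes). With the floor at the 55th percentile 5 of 51 were higher in involution (851 of 9373 genes). With the floor added as a pseudocount 0 of 60 were higher and 1 lower in heterozygous HHR (324 and 261 of 10871 genes). Median centring gave 5 of 59 higher and 10 lower in involution (856 and 1233 of 10962 genes). The cause of these shifts was not tested beyond what each setting does by its construction. The floor bounds what can be seen of weak genes such as Itgb3, Col8a2 and Col6a6. No paired analysis was possible because each group has 1 array.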
